A study of Equus caballus with 4 samples.

Results

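The genes of the activator protein 1 (AP-1) transcription factor and other immediate early genes were followed in differentiating equine satellite cells (ESC) with and without the leucine metabolite *β*-hydroxy-*β*-methylbutyrate (HMB). The 10 genes sought were *FOS*, *FOSB*, *FOSL1*, *FOSL2*, *JUN*, *JUNB*, *JUND*, *ATF3*, *EGR1* and *IER3*. Probes were taken by the gene name printed beside them in the array files, which found 8 of these 10 genes, with 12 probes, among 14694 genes with a symbol on the array. *JUN* and *JUND* had no probe under their own names. A further 7 probes, 1 for *JUN*, 1 for *FOS* and 5 for *JUNB*, carried an accession in place of a name and were identified by their description, accession or RefSeq gene number. They were added after values had been seen and are kept apart in the counts. *JUND* was not analysed here.

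ESC came from the *semitendinosus* muscle of 6-month-old colts and had been preplated, a step that lowers the number of fibroblasts. Both groups were on day 3 of differentiation in medium with horse serum. HMB-treated cells had received HMB for the last 24 h, after 2 d of differentiation, and control cells the same medium without it. The labels give the HMB dose as 50 µg, whereas the methods give a concentration. The description of each array calls the Cy5 cells GO-treated, against its title, source and protocol, which name HMB and were followed here. Which colt stood behind which array was not given in the sources used here. Each of the 4 arrays (*n* 4) held HMB-treated cells in Cy5 and control cells in Cy3, so that a dye effect cannot be told apart from the treatment. Values are log2 ratios of HMB-treated over control cells, in which 0 is no difference. A difference was called when limma's *P*, adjusted over all tested probes, was at most 0.05.

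AP-1 is a dimer of a Jun protein with a Fos protein, another Jun protein or a related factor, held together by a leucine zipper, a helix with a leucine at regular steps. Immediate early genes are switched on briefly by serum, growth factors or stress, from factors already present in the cell. In myoblasts, Fos and Jun proteins are known to oppose the myogenic programme, and their genes are usually turned down as the cells differentiate.

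The measured members did not move together. Among the 8 genes found by name, 2 (25.0%) were past the threshold, *EGR1* higher and *ATF3* lower in HMB-treated cells, while 22.8% of all 27383 tested probes were. All tested *ATF3* probes passed the filter on dim probes through the control channel alone, in which they were the brighter, so that the filter itself favoured a lower value and this count supports no direction. With both channels required to be well above background, *ATF3* was not tested and 1 gene, *EGR1*, was called. In that setting 5771 of all 26097 tested probes were called. With the added probes, 3 of 9 genes (33.3%) were past it, the third being *JUNB*, which was higher, and with both channels required 2 were, *EGR1* and *JUNB*. Among 9801 tested genes with a symbol, each by its brightest tested probe, 22.7% were called, 11.5% higher and 11.2% lower.

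**Figure D1:**
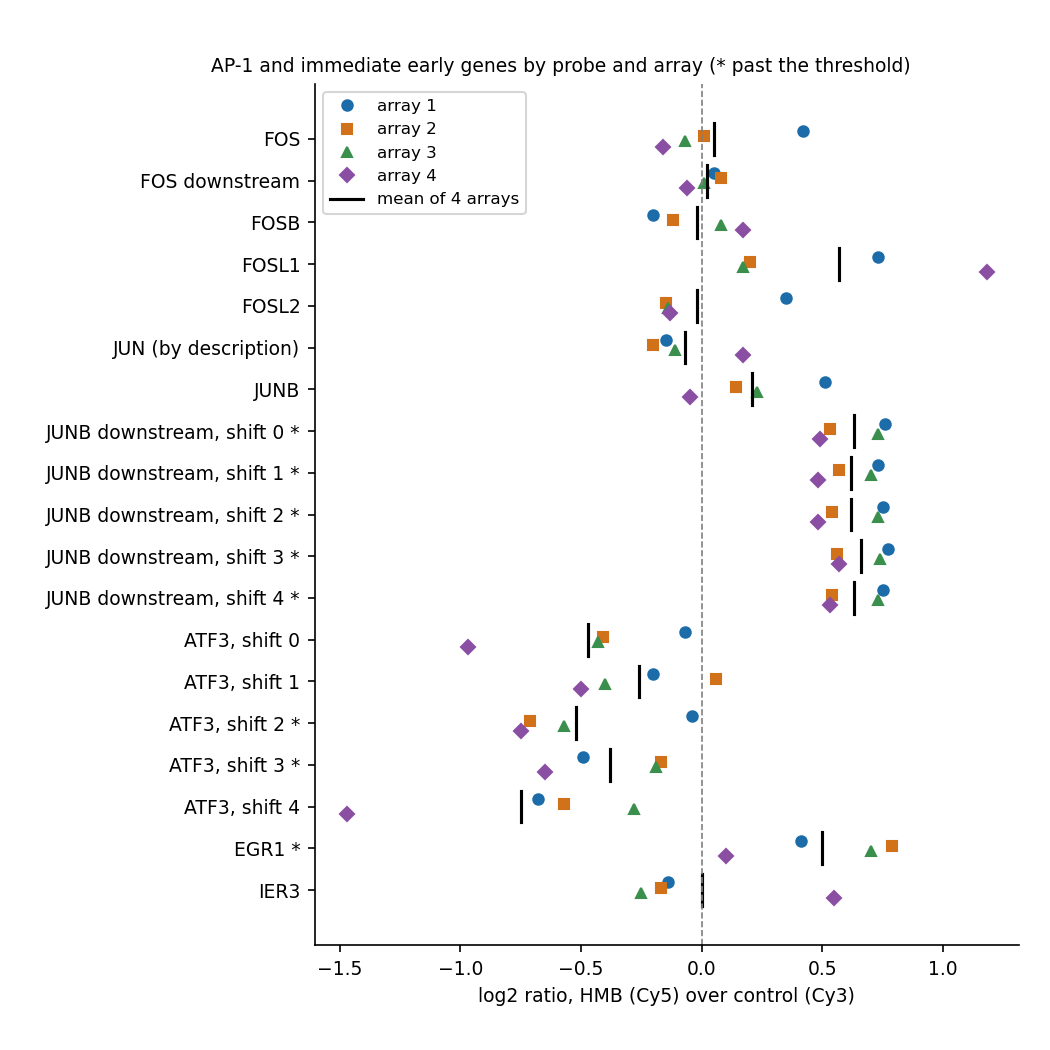
Log2 ratio of HMB-treated over control cells (horizontal axis) for each of 19 probes of the AP-1 and immediate early genes (vertical axis), with a symbol for each of the 4 arrays and a vertical bar at their mean; probes marked downstream or by description were identified by accession or description, and a shift is the number of bases between tiled probes. The 5 downstream *JUNB* probes lie between 0.48 and 0.77 on all arrays, whereas the *FOSB*, *FOSL2*, *JUN* and *IER3* points lie on both sides of 0.

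*FOS*, the subunit that gave the family its name, had a probe in its zipper region, shown with that of *FOSL1* because these 2 probes read the part that holds the dimer together. The capitals mark leucine codons 7 codons apart in an open reading frame, 3 in *FOS* and 2 in *FOSL1*. In the EquCab1 build the *FOS* probe lies on the plus strand at chr24:20142566-20142625, and the *FOSL1* probe on the minus strand at chr12:16368903-16369650, a span of 748 bases for a probe of 60.
FOS: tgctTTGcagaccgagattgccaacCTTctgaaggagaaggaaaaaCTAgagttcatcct
FOSL1: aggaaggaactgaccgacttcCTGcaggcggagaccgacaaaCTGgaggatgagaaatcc

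The log2 ratios of *FOS* at this site were 0.42, 0.01, -0.07 and -0.16 on arrays 1 to 4 (mean 0.05 ± 0.26, SD, *n* 4; SE 0.10, adjusted *P* = 0.771). Array 1 stood above the other 3, which lay near 0. The signal was weak, with processed signals of 31.6 to 34.0 in control cells and 30.4 to 44.8 in HMB-treated cells, although it was well above background on every array. The lowest signals well above background on the 4 arrays were 13.4 to 18.1 in Cy3. A second *FOS* probe, found by its accession, starts 1187 bases downstream at chr24:20143753-20143812, and its control signals were 1237 to 1482. Its log2 ratios were 0.05, 0.08, 0.01 and -0.06, with a mean of 0.02 ± 0.06 (SD, *n* 4; SE 0.06, adjusted *P* = 0.826). *FOS* mRNA was thus not called at either site, and the 95% interval at the brighter site ran from -0.13 to 0.17. The difference between the sites (downstream minus upstream) was -0.36 on array 1 and 0.08 to 0.10 on the other 3.

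*FOSB* encodes another partner of the Jun proteins. Its probe, at chr10:16095501-16095560, gave log2 ratios of -0.20, -0.12, 0.08 and 0.17 on arrays 1 to 4. The mean was -0.02 ± 0.17 (SD, *n* 4; SE 0.08, adjusted *P* = 0.891), with 2 arrays on each side of 0. The control signal of *FOSB* itself differed between arrays, from 674 on array 4 to 1573 on array 1, more than HMB-treated and control cells did within an array.

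*FOSL1* encodes Fra-1, a Fos protein that stays longer in stimulated cells. Its log2 ratios were 0.73, 0.20, 0.17 and 1.18 on arrays 1 to 4, a mean of 0.57 ± 0.48 (SD, *n* 4; SE 0.17, adjusted *P* = 0.061). All 4 arrays were above 0, yet arrays 1 and 4 were far above arrays 2 and 3, and the probe missed the threshold. The mean was 0.28 with normexp and 0.37 without array 4, and *FOSL1* was called in 0 of 12 alternatives. Control signals of 27.2 to 45.9 were low, and the HMB signal reached 104 on array 4 and was 39.2 to 48.2 on the others.

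*FOSL2* encodes Fra-2. The study lists it as differentially expressed on these arrays, which was not seen here. Its probe, at chr15:64623997-64624056, gave log2 ratios of 0.35, -0.15, -0.14 and -0.13 on arrays 1 to 4 (mean -0.02 ± 0.24, SD, *n* 4; SE 0.10, adjusted *P* = 0.916). The 3 arrays with lower *FOSL2* in HMB-treated cells were nearly equal, and array 1 stood apart from them. Its control signals were even, at 294 to 306, and the HMB signal was 378 on array 1 and 266 to 278 on the others.

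*JUN* and *JUNB* encode Jun subunits, of which c-Jun is a strong activator and JunB a weaker one that can restrain it. The *JUN* probe lies at chrUn:255545994-255546053 and the *JUNB* probe found by name at chrUn:199780176-199780235 (minus strand), both on unplaced sequence. They are shown because they read a related stretch of both genes. The capitals mark the bases that are identical where the probes overlap without gaps, 23 of 30 (76.7%), with no identical run longer than 8 bases.
JUN: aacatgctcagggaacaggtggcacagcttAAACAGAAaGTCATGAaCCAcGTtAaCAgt
JUNB: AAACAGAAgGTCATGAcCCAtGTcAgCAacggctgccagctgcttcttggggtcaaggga

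*JUN* gave log2 ratios of -0.15, -0.20, -0.11 and 0.17 on arrays 1 to 4 (mean -0.07 ± 0.16, SD, *n* 4; SE 0.08, adjusted *P* = 0.546). It was lower in HMB-treated cells on 3 arrays and higher on array 4, and was not called. Signals were strong, 3558 to 4485 in control cells and 3107 to 4457 in HMB-treated cells.

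*JUNB* was read at 2 sites, of which only the downstream one was called. At the upstream site, the log2 ratios were 0.51, 0.14, 0.23 and -0.05, with a mean of 0.21 ± 0.23 (SD, *n* 4; SE 0.10, adjusted *P* = 0.17), which was not called. Array 1 was the highest and array 4 was below 0.

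The 5 other *JUNB* probes are tiled 1 base apart, 482 bases further downstream, within 64 bases at chrUn:199779694-199779757. They are repeats of a single measurement and were counted as 1 gene. Averaged over these 5, the log2 ratios of *JUNB* were 0.75, 0.55, 0.72 and 0.51 on arrays 1 to 4, so that all 4 arrays were higher with HMB and lay close together. The means of the 5 probes were 0.62 to 0.66, with SE of 0.07 and adjusted *P* of 0.00297 to 0.00414. The brightest of them was 1.55-fold higher in HMB-treated cells, with a mean of 0.63 ± 0.14 (SD, *n* 4; adjusted *P* = 0.00401). Its signals were 11554 to 13890 in control cells and 16712 to 23199 in HMB-treated cells, which did not overlap. A test of each probe on its own ratios, without moderated variances, kept the call of 1 of the 5 probes and lost that of the brightest (adjusted *P* = 0.0583), which stood in 12 of 13 alternatives.

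The downstream *JUNB* site exceeded the upstream site on each array, by 0.24, 0.40, 0.50 and 0.56 in log2 ratio (mean 0.42 ± 0.14, SD, *n* 4). With 4 arrays the exact two-sided sign-flip permutation test cannot go below 0.125, the value it gave here. *JUNB* mRNA was therefore called higher only by the probes that the gene name did not find. The mean of all 6 *JUNB* probes was also called (0.56, adjusted *P* = 0.00511). As 5 of these 6 are the repeats of the downstream site, that mean adds no support to their call.

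**Figure D2:**
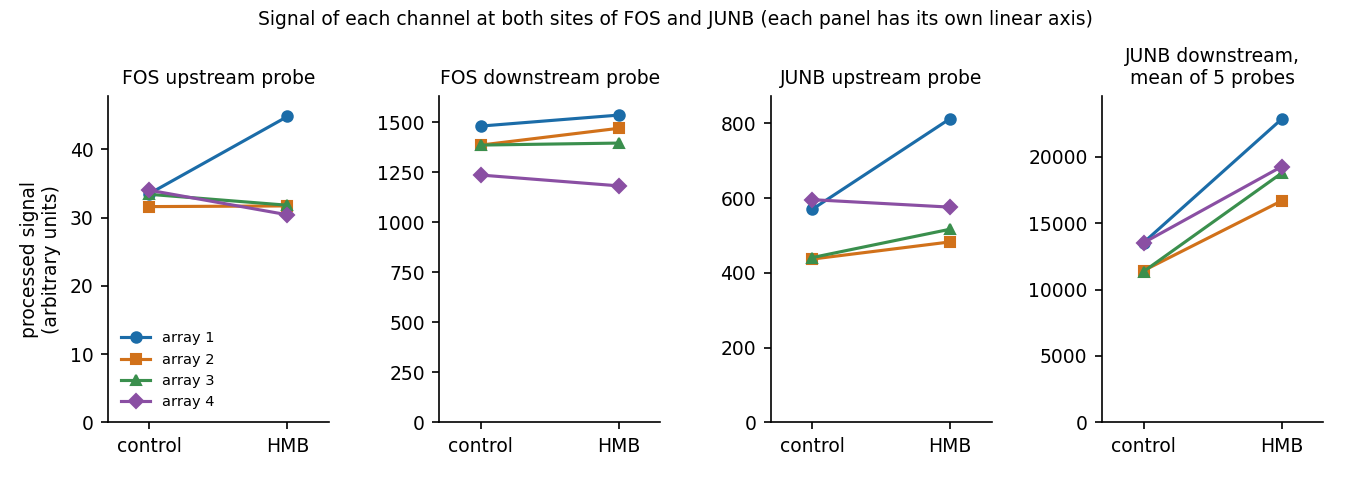
Processed signal (vertical axes, linear, arbitrary units, 1 scale per panel) of control and HMB-treated cells, array by array, at the upstream and downstream sites of *FOS* and *JUNB*, with lines joining both channels of an array. At the downstream *JUNB* site every line rises, whereas at the upstream *JUNB* site array 4 falls and at both *FOS* sites the lines go either way.

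*ATF3* encodes a stress-induced factor of the same zipper class, which pairs with Jun proteins and often acts as a repressor. Its 5 probes read a single site of 64 bases on chromosome 5 and are tiled 1 base apart. The outermost of them, at chr5:17272763-17272822 and chr5:17272759-17272818 on the minus strand, show how little they differ, and the capitals mark the 56 bases that all 5 share.
ATF3 shift 0: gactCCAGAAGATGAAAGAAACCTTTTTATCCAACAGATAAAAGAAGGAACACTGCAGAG
ATF3 shift 4: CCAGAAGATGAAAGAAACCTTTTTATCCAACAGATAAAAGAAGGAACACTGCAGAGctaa

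In 19 of 20 values, 5 probes on 4 arrays, *ATF3* was lower in HMB-treated cells. These probes are repeats of 1 site and most of the HMB values were not well above background, so this tally supports no direction. The mean of the 5 probes was -0.30, -0.36, -0.38 and -0.87 on arrays 1 to 4, or -0.48 ± 0.26 (SD, *n* 4), with array 4 the lowest. Of the 5 probes, 3 were tested and 2 of those were called. All 3 were well above background on 4 arrays in control cells but on 2, 1 and 3 in HMB-treated cells (shifts of 1, 2 and 3 bases), so they entered the test through the channel in which they were high and the call does not stand apart from the filter. The site was dim throughout: the control channel was well above background in 17 of 20 spots and the HMB channel in 8 of 20.

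The probe shifted by 2 bases, the brightest by its mean, gave log2 ratios of -0.04, -0.71, -0.57 and -0.75, with a mean of -0.52 ± 0.33 (SD, *n* 4; SE 0.13, adjusted *P* = 0.0323). Its rank rested on array 1, where its signals were 260 in control and 253 in HMB-treated cells, whereas they were 21.5 to 23.5 and 13.2 to 15.8 on the others. No mark of Feature Extraction set that spot apart. The HMB channel of this probe was well above background on array 1 alone, so that the size of its fall is uncertain.

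The probe shifted by 3 bases was well above background on all 4 arrays in control cells and on 3 in HMB-treated cells. It gave -0.49, -0.17, -0.19 and -0.65, a mean of -0.38 ± 0.24 (SD, *n* 4; SE 0.10, adjusted *P* = 0.0404). The probe shifted by 1 base had a mean of -0.26 ± 0.24 (SD, *n* 4; adjusted *P* = 0.113) and was not called. The means of the 5 *ATF3* probes ran from -0.75 to -0.26. The lowest came from a probe whose HMB channel was well above background on no array. All 5 read 1 site that was dim in HMB-treated cells, so these means support no direction. The call of the gene depended on the probe and the setting. With normexp background correction the mean of the probe shifted by 3 bases was -0.07 (adjusted *P* = 0.354) and that of the probe shifted by 2 bases -0.16 (adjusted *P* = 0.0697). For the latter, the range over all alternatives was -0.74 to -0.16, and it was called in 5 of 12. It was not called without array 2 (-0.45), array 3 (-0.50) or array 4 (-0.44).

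**Figure D3:**
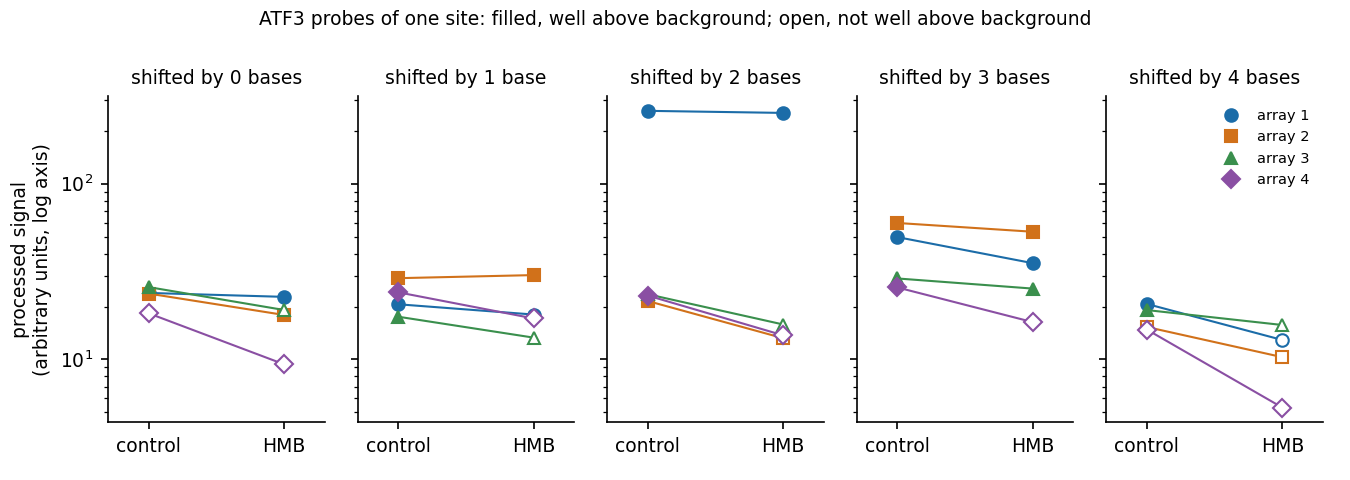
Processed signal (vertical axis, log scale, arbitrary units) of control and HMB-treated cells for the 5 tiled *ATF3* probes, 1 panel per probe in order of their shift, with lines joining both channels of an array; filled symbols were well above background and open symbols were not. Array 1 of the probe shifted by 2 bases, at 260 and 253, stands above all other points, and 12 of the 20 HMB symbols are open.

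*EGR1* encodes a zinc finger factor that is switched on by serum through the same upstream factors as *FOS*. Its probe lies at chr14:37296035-37296094, at position 3063 of the transcript. The log2 ratios were 0.41, 0.79, 0.70 and 0.10 on arrays 1 to 4, a mean of 0.50 ± 0.31 (SD, *n* 4; SE 0.12, adjusted *P* = 0.0318), or 1.42-fold higher in HMB-treated cells. All 4 arrays were above 0, with arrays 2 and 3 the highest and array 4 near 0. Signals were 2534 to 3612 in control cells and 2858 to 5409 in HMB-treated cells, so the groups overlapped across arrays. The *EGR1* call was lost without array 1 (0.53, adjusted *P* = 0.0716), array 2 (0.40, adjusted *P* = 0.112) or array 3 (0.43, adjusted *P* = 0.117), and remained without array 4 (0.63, adjusted *P* = 0.0154). Over all 12 alternatives its mean ranged from 0.40 to 0.63 and it was called in 6.

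*IER3* encodes an immediate early protein that affects cell survival. The array files also list an expressed sequence tag of its probe beside 18S ribosomal RNA probes, so the identity of the probe is only as those files give it. This probe, at chrUn:93484717-93484776, gave log2 ratios of -0.14, -0.17, -0.25 and 0.55 on arrays 1 to 4 (mean 0.00 ± 0.37, SD, *n* 4; SE 0.14, adjusted *P* = 0.987). Array 4 went the opposite way to the other 3. Control signals of *IER3* were even (94.6 to 110), and the HMB signal was 157 on array 4 and 85.7 to 93.2 on the others.

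No array was the highest or the lowest for all members. By the brightest tested probe of each of 9 genes, array 4 gave the highest ratio for 4 genes (*FOSB*, *FOSL1*, *JUN* and *IER3*) and the lowest for 4 others (*FOS*, *JUNB*, *ATF3* and *EGR1*). Array 1 was the highest for 3 genes.

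The other genes of the pathway were read from lists of textbook members. Of 15 further partners of AP-1 and related zipper genes, 8 were tested and 3 (37.5%) were called, 1 higher and 2 lower, beside 22.7% of all tested genes with a symbol, and the median was 0.08 beside 0.03. With so few genes tested, these shares were not compared by a test. *JDP2*, a repressor that binds Jun proteins, was higher on all 4 arrays (0.17 to 0.35; mean 0.27 ± 0.08, SD, *n* 4; adjusted *P* = 0.0267). *MAFG*, a small Maf protein, fell by 0.25 ± 0.11 (SD, *n* 4; adjusted *P* = 0.0431), and *CREM*, a factor of the cAMP response, by 0.24 ± 0.11 (SD, *n* 4; adjusted *P* = 0.0491). These differences were small, and those of *MAFG* and *CREM* lay close to the threshold. Of 12 alternatives, *JDP2* was called in 6, *MAFG* in 5 and *CREM* in 4. *BATF*, *BATF2*, *BATF3* and *NRL* did not pass the filter on dim probes.

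Among the other immediate early genes, 31 of 44 were tested and 8 (25.8%) were called, a share near the 22.7% of all genes with a symbol. Of these, 3 were higher and 5 lower, and the median was -0.06, beside 0.03 for all those genes. The genes that were higher have different roles. *IER2*, a nuclear protein induced with *FOS*, gave 0.59, 0.22, 0.54 and 0.54 on arrays 1 to 4 (mean 0.47 ± 0.17, SD, *n* 4; adjusted *P* = 0.012). *DUSP6*, a phosphatase that turns off ERK kinases, gave 0.37, 0.65, 0.42 and 0.85 (mean 0.57 ± 0.22, SD, *n* 4; adjusted *P* = 0.0109). *SGK1*, a kinase induced by serum and glucocorticoids, had a mean of 0.52 ± 0.22 (SD, *n* 4; adjusted *P* = 0.0145). All 3 were above 0 on each array, and of 12 alternatives *IER2* was called in 9, *DUSP6* in 10 and *SGK1* in 10.

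The other 5 were lower in HMB-treated cells. *GADD45A* gave -0.38, -0.39, -0.54 and -1.12 on arrays 1 to 4 (mean -0.61 ± 0.35, SD, *n* 4; adjusted *P* = 0.0231), and *GADD45G*, of the same gene family, had a mean of -0.50 ± 0.18 (SD, *n* 4; adjusted *P* = 0.0111). *BTG1*, which restrains proliferation, fell by 0.60 ± 0.42 (SD, *n* 4; adjusted *P* = 0.0376). *HBEGF*, a ligand of the EGF receptor, had a mean of -0.66 ± 0.40 (SD, *n* 4; adjusted *P* = 0.0262), and *CTGF*, a matrix protein gene, one of -0.38 ± 0.11 (SD, *n* 4; adjusted *P* = 0.0136). Array 4 was the lowest of the 4 for *GADD45A*, *GADD45G*, *BTG1* and *HBEGF*. Of 12 alternatives, *CTGF* was called in 9, *GADD45A*, *GADD45G* and *HBEGF* in 8 each and *BTG1* in 7, and with normexp the mean of *HBEGF* was -0.36. *EGR3* and *EGR4*, relatives of *EGR1*, did not pass the filter on dim probes.

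**Figure D4:**
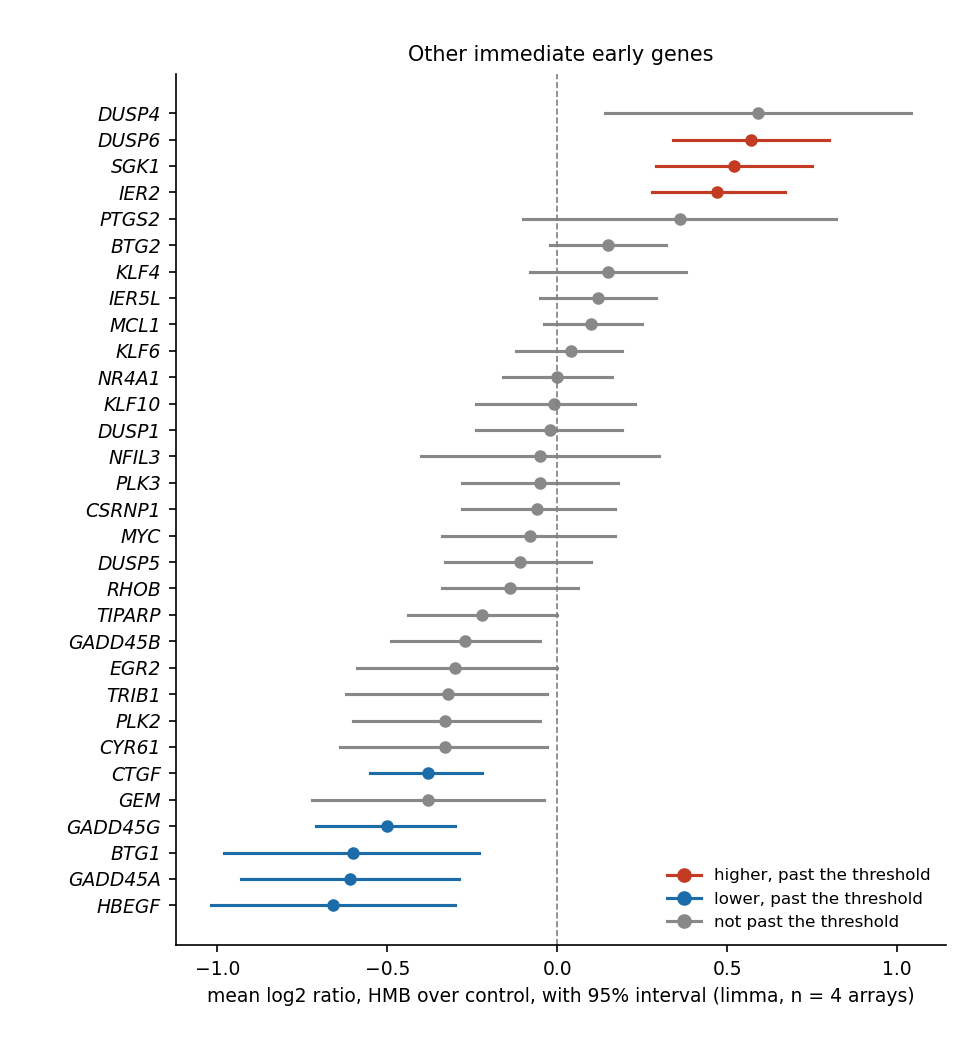
Mean log2 ratio of HMB-treated over control cells with its 95% interval (horizontal axis, *n* 4) for the 31 tested immediate early genes outside the 10 members, ordered by their mean; red and blue are genes past the threshold, higher or lower with HMB, and grey are the others. The means lie between -0.66 and 0.59, with 3 red and 5 blue genes.

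Of 29 kinases and factors that act upstream of immediate early genes, 23 were tested and 2 (8.7%) were called, beside 22.7% of all tested genes with a symbol, and the median was -0.03 beside 0.03. *ELK3*, a partner of SRF that can repress *FOS*, was higher on all 4 arrays (0.23, 0.29, 0.29 and 0.67; mean 0.37 ± 0.20, SD, *n* 4; adjusted *P* = 0.0317). *MAP3K1*, a kinase upstream of JNK, was lower on all 4 (mean -0.32 ± 0.13, SD, *n* 4; adjusted *P* = 0.0249), although only 1 of its 2 tested probes was called. The *ELK3* call was lost without array 1, 2 or 3 (adjusted *P* = 0.0529, 0.0892 and 0.0879) and stood in 6 of 12 alternatives. That of *MAP3K1* stood in 5 of 12 and was lost with normexp (-0.14, adjusted *P* = 0.114). The bright genes *MAP2K1* and *MAP3K5* had means of 0.03 (adjusted *P* = 0.827) and 0.21 (adjusted *P* = 0.0976), and without lowess *MAP3K5* was called at 0.33 (adjusted *P* = 0.0263).

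Of 24 genes known as AP-1 targets, 19 were tested and 3 (15.8%) were called, 2 higher and 1 lower, beside 22.7% of all tested genes with a symbol, and the median was 0.21 beside 0.03. This share depended on the processing. Without lowess 9 targets were called, beside 7797 of all 27378 probes tested in that setting. With the intensity trend 6 targets were called, beside 6760 of 27383 probes. With normexp 5 were, beside 6239 of 27383 probes. *SPP1*, the gene of osteopontin, which the study picked from these same arrays, gave -1.36, -1.19, -1.58 and -1.77 on arrays 1 to 4 (mean -1.48 ± 0.26, SD, *n* 4; adjusted *P* = 0.00113), or 2.79-fold lower. *HGF*, the hepatocyte growth factor that activates satellite cells, gave 0.97, 1.15, 1.34 and 2.00 (mean 1.36 ± 0.45, SD, *n* 4; adjusted *P* = 0.00435), or 2.57-fold higher. *ECE1* had a mean of 0.40 ± 0.20 (SD, *n* 4; adjusted *P* = 0.025). With normexp *HGF* had a mean of 0.79 and stayed past the threshold (adjusted *P* = 0.013), whereas *ECE1* had 0.18 and did not (adjusted *P* = 0.143). Of 12 alternatives, *SPP1* was called in 12, *HGF* in 11 and *ECE1* in 7. The targets thus went in both directions. *MMP1*, *MMP3*, *MMP13* and *CXCL8* did not pass the filter on dim probes.

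The identity of the cells was checked with marker genes. Of 14 myogenic markers, 13 were tested and all 13 were lower in HMB-treated cells, with a median of -0.87, beside 11.2% lower among all tested genes with a symbol. This count is by the brightest tested probe of each gene. *MYOD1*, named outside the rule for named genes, had 2 tested probes, of which only 1 was called lower. The brightest were *MYH3*, *ACTA1* and *DES*, with means of -1.11, -0.98 and -0.98. Without lowess these means were -0.37 (adjusted *P* = 0.0536, not called), -0.38 (adjusted *P* = 0.0352) and -0.63 (adjusted *P* = 0.00551). All 3 calls were lost with no filter on dim probes (adjusted *P* of 0.0582 to 0.0683) and with the unmoderated test (0.0937 to 0.105), and they stood in 9, 10 and 10 of 12 alternatives. *PAX7*, the marker of quiescent satellite cells, did not pass the filter on dim probes. Of 10 fibroblast markers, 9 were tested, with a median of 0.01, and 1 was called, *PDGFRA*, which gave 1.09, 1.38, 1.46 and 2.19 on arrays 1 to 4 (mean 1.53 ± 0.47, SD, *n* 4; adjusted *P* = 0.00358). It is named as the only one called, outside the rule for named genes. *COL1A2*, *COL3A1* and *DCN*, the brightest of them, had means of -0.20, -0.21 and 0.15 and were not called, and *TCF21* did not pass the filter. Without lowess all 3 were called higher, *COL1A2* at 0.88 (adjusted *P* = 0.000946), *COL3A1* at 0.75 (adjusted *P* = 0.00317) and *DCN* at 0.91 (adjusted *P* = 0.0006). With normexp the means were 0.17, 0.10 and 0.36, and only *DCN* was called (adjusted *P* = 0.0325). The direction of the collagen genes thus depended on the normalisation. It was read here from the brightest probe of each gene, and other probes differed from it. With that probe included, its sign and call were shared by 2 of 7 tested *COL3A1* probes. They were shared by 7 of 9 for *COL1A2* and 1 of 2 for *DCN*.

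Of 8 leukocyte markers 4 were tested, and *PTPRC* was called (mean 0.28 ± 0.13, SD, *n* 4; adjusted *P* = 0.0374), whereas *CD14* had a mean of 0.02 and was not. Both probes were bright, with mean control signals of 10925 for *PTPRC* and 5159 for *CD14*. Those of *DES*, *ACTA1* and *MYH3* were 28301, 57690 and 89049. The sign and call of *PTPRC* were shared by 6 of its 8 tested probes. The *PTPRC* call was lost whenever 1 array was left out (adjusted *P* of 0.0574 to 0.115) and stood in 5 of 12 alternatives. Without lowess the mean of *PTPRC* was 0.50 (adjusted *P* = 0.00374). *CSF1R*, *CD163*, *ITGAM* and *CD3E* did not pass the filter, nor did any of the 6 endothelial markers, *PECAM1*, *CDH5*, *VWF*, *KDR*, *TEK* and *EMCN*. In such bulk samples a lower share of myogenic cells and less mRNA per cell cannot be told apart, and the part of the myogenic fall in the ratios of *EGR1*, *JUNB* and *ATF3* was not tested.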

How the data were processed

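Messenger RNA of HMB-treated (Cy5) and control (Cy3) ESC was measured on 4 two-colour horse arrays of 1 slide, without a dye swap. The authors scanned them with Feature Extraction, version 10.10.1.1 per the file headers, whereas the methods name another version. The deposited intensities are mean and background signals, background-subtracted signals and processed, dye-normalised signals, and the log10 ratios deposited for each spot (Cy5 over Cy3) followed linear and lowess normalisation by the authors. The deposited summary table holds the same log10 values (largest difference 0). The other columns used, deposited by the authors, are marks of spots and a factor of the detrending surface.

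Ratios were put on the log2 scale (times 3.32). The 1417 control spots per array and spots marked non-uniform or outlying were left out and the spots of a probe averaged. Probes entered the test if Cy3, or Cy5, exceeded background clearly on each of the 4 arrays, with values on 3 or more. limma 3.58.1 in R 4.3.3 fitted the mean ratio with moderated variances, and *P* was adjusted over 27383 probes after Benjamini and Hochberg. The number of arrays limits the precision. *P* values measure the spread between these arrays.

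Symbols came from the files, from a RefSeq table (thoroughbred assembly, names only, which named 898 probes by accession, 1427 by gene number and 206 by synonym) or from descriptions (47 probes), or from another probe of the accession (268). The brightest tested probe stands for a gene. The members and lists were chosen with earlier results of these data known. Of each list, genes that were called and had 1 sign throughout were named, at most 6 per direction, with the 3 brightest where there were fewer than 3. Of marker lists the 3 brightest and all not above background were named. Some genes of the lists are not reported here by name.

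Both channels of an array are paired by the ratio. Their deviations from the group means correlated at 0.591, 0.642, 0.452 and 0.627 on arrays 1 to 4. The alternatives were normexp (offset 50) with loess, median centring without lowess, a test of each probe on its own ratios without moderated variances (the methods section names no test), an intensity trend with a robust prior, no pairing within arrays, other filters on dim probes, marked spots kept, the mean of a gene's probes, and each array left out. The procedure was tested on simulated data. Coordinates are those of the files (EquCab1). Promoters and proteins were not used here.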

Additional observations from a re-analysis of the deposited data

Results flagged for a closer look

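In 5 of 46 sets of 4 log2 ratios, 1 array lay far from the other 3 relative to the range. Chance gives about 1 in 20 independent sets, but tiled probes of *ATF3* and *JUNB* were counted singly here and many genes were named because they were called, so the count is not compared with it. Of *FOSL2*, array 1 was at 0.35 and the others at -0.15 to -0.13. Of *IER3*, array 4 was at 0.55 and the others at -0.25 to -0.14. Of *IER2*, array 2 was at 0.22 and the others at 0.54 to 0.59. Of *ELK3*, array 4 was at 0.67 and the others at 0.23 to 0.29. Of *PTPRC*, array 1 was at 0.47 and the others at 0.21 to 0.22. The array that stood apart differed between these genes.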

How the results depend on the processing

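The calls of the members depended on the processing. With 4 arrays of 1 slide and no dye swap, neither a slide effect nor a dye effect could be tested. Of all tested probes 6257 were past the threshold, 3071 higher and 3186 lower. This count was 768 with the test of each probe on its own ratios (unmoderated), 2226 with no replicate block and 3690 with no filter on dim probes. It was 2573 to 4957 with 1 array left out (2573 without array 2, 2705 without array 3). It rose to 7797 without lowess and to 6760 with the intensity trend. Without lowess 4603 were higher and 3194 lower. With no replicate block 666 were higher and 1560 lower, and these were 936 and 1637 without array 2. Of the members found by name 2 were past the threshold, beside 1 with normexp and loess and 1 with both channels above background. With no replicate block and with no filter it was 0, and with 1 array left out 0 to 1. The unmoderated test gave 0 (8435 probes on the array were below 0.05 before adjustment). With the probes named by accession or description, chosen after the values were seen, 3 were, beside 0 with the unmoderated test, 1 with no replicate block, 1 with no filter and 1 to 2 with 1 array left out.

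Of the AP-1 dimer partners 3 were past it, beside 1 without lowess, 0 with the unmoderated test, 0 with no replicate block, 1 with no filter and 0 to 2 with 1 array left out. Of the other immediate early genes 8 were, beside 0 with the unmoderated test, 5 with no replicate block, 3 with no filter and 4 to 9 with 1 array left out. Of the kinases and SRF factors 2 were, beside 1 with normexp, 4 without lowess, 0 with the unmoderated test, with no replicate block and with no filter, 1 with the mean of the probes, and 0 to 3 with 1 array left out. Of the AP-1 targets 3 were, beside 5 with normexp, 9 without lowess, 1 with the unmoderated test, 6 with the intensity trend and 2 to 5 with 1 array left out. Without lowess *COL1A2* (0.88) and *COL3A1* (0.75) turned from below to above 0.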
